A study of Mus musculus with 7 samples.

Results

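The nuclear receptors of the liver and the proteins that carry their signal to chromatin were followed in RNA-seq of livers from ApoE-/- mice. The set holds 36 genes, 31 receptors and 5 coregulators, taken by gene symbol from the 14889 genes of the deposited count table. The symbols were taken by gene family, with no threshold on a measured value. The PX-478 group was 3 ApoE-/- mice given PX-478 at 40 mg/kg, and the saline group was 4 ApoE-/- mice given saline. Both were injected intraperitoneally, bi-weekly by the labels, and all 7 mice were of the C57BL/6 strain, aged 4 months and on Western diet for 3 months. All mice therefore lack apolipoprotein E, a ligand for lipoprotein clearance, and no animal on normal diet or with intact Apoe is part of the comparison. PX-478, a melphalan derivative, is used as an inhibitor of the hypoxia factor HIF-1α, and the comparison asks how its administration relates to transcript levels in the liver.

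Nuclear receptors are transcription factors that bind DNA and, in most cases, a small lipophilic ligand such as a fatty acid, bile acid, oxysterol, steroid, retinoid or thyroid hormone. Many of them bind as heterodimers with a retinoid X receptor, and they recruit coactivators or corepressors that modify chromatin. In the liver they set bile acid synthesis, fatty acid oxidation, lipogenesis, glucose output and the clearance of drugs, and the transcripts of several receptors follow the time of day. Most are regulated by ligand, by partner proteins and by modification, so a transcript level is one of several layers and is not receptor activity.

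Each library held 10285776 to 17257304 counted reads. Levels are library-scaled read counts (CPM, scaled by the trimmed mean of M-values, TMM). Means are given ± SD over 3 PX-478 and 4 saline livers. Differences are log2 fold changes, PX-478 relative to saline, also where a value stands in brackets after 2 means, and come from edgeR's quasi-likelihood test with Benjamini-Hochberg adjustment over all 13693 genes tested. Reads of mitochondrially encoded genes made up 22.4% to 36.7% of PX-478 libraries and 27.1% to 31.9% of saline libraries, with means of 30.6% and 29.5% (exact two-sided permutation test, p = 0.8). The lowest share was in PX-478 replicate 2. How the animals were caged or the livers handled is not in the labels, and a p-value here speaks only of the spread among these 7 samples. All 10 hepatocyte markers were detected, with summed levels of 36207 to 45003 CPM in PX-478 livers and 40939 to 58017 CPM in saline livers.

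None of the receptors or coregulators passed the test at an adjusted p under 0.05, where 1 of 13693 genes (0.0073%) did, Cfd, which encodes complement factor D. Of the 36 genes 35 passed the count filter, and Rora did not. The smallest adjusted p among the 35 was 0.590. At an unadjusted p under 0.05 there were 3 (8.57%), against 6.97% of all genes tested. These were Nr1h4, Esrra and Ncoa3, all with higher values in PX-478, against 3.48% of all genes in that direction. DESeq2 also passed 0 of the 35 at an adjusted p under 0.05, against 0.613% of all genes, and limma-voom passed 0 of all genes. At an unadjusted p under 0.05 there were 3 in DESeq2, against 7.72% of all genes, and 4 in limma-voom, against 7.77%, where Esr1 was the fourth. With edgeR the 3 genes became 1 without PX-478 replicate 3 (7.31% of all genes), 1 without saline replicate 1 (6.05%) and 5 without saline replicate 4 (6.65%).

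Values were higher in PX-478 for 25 of the 35 genes (71.4%) and lower for 10, while 49.7% of all genes tested were higher. The median log2 fold change was 0.15 over the 35 genes and -0.0035 over all genes. Without saline replicate 3 it was 0.074 over the genes of the set, with 21 higher, and it was 0.23 without PX-478 replicate 2, while 29 were higher without saline replicate 1. With scaling by library size alone, 31 of the 35 were higher with a median of 0.29, where 65.99% of all genes were higher and their median was 0.15. Groups did not overlap for 1 of the 35, Esrra, against 4.3% of all genes that lay higher in PX-478 without overlap. The 95% interval of the log2 fold change had a median half-width of 0.60 (0.36 to 2.63). It lay within a 2-fold change in either direction for 21 of the 35, while for the other 14 it reached beyond 2-fold on at least 1 side.

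**Figure D1:**
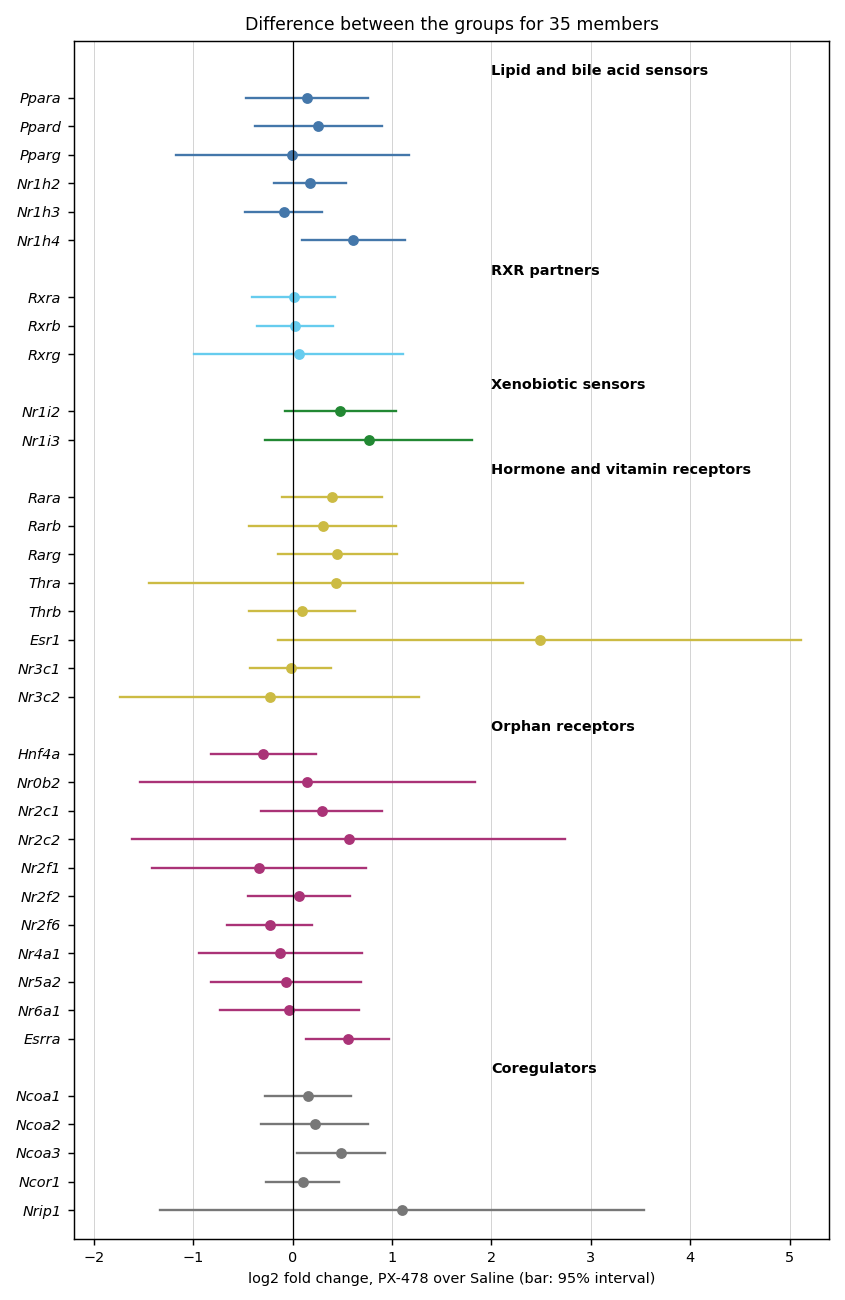
Log2 fold change, PX-478 relative to saline (x axis, log2 units), for the 35 tested receptors and coregulators, by role. Points are edgeR estimates and bars 95% intervals. The intervals of Nr1h4, Esrra and Ncoa3 lie above 0, and that of Esr1 is among the widest, reaching from -0.14 to 5.11.

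Per kilobase of annotated exon, and by the mean over all 7 livers, the bile acid receptor Nr1h4 stood first of the 36, at 170.2 CPM per kilobase in PX-478 livers and 111 in saline livers. Hnf4a, the receptor that maintains hepatocyte identity, had 84.9 CPM per kilobase in PX-478 livers and 104 in saline livers. It exceeded Nr1h4 in saline replicate 3, with 148 against 90.9 CPM per kilobase, and lay level with it in saline replicate 1, with 89.2 against 88.2. The xenobiotic sensors came next by that mean, with 78.2 CPM per kilobase in PX-478 livers and 56.0 in saline livers for Nr1i2 and 82.0 CPM per kilobase in PX-478 livers and 48.3 in saline livers for Nr1i3, whose reads cannot be told from those of Tomm40l. Nr1h3 had 47.8 CPM per kilobase in PX-478 livers and 50.9 in saline livers, so that the order of Nr1i3 and Nr1h3 differed between the groups. Nr1h3, Nr0b2, Ppara, Rxra, Nr1h2, Esrra and Nr2f6 lay between 29.2 and 50.9 CPM per kilobase in both groups. Esr1 had 0.720 CPM per kilobase in PX-478 livers and 0.125 in saline livers, and Rora, at 0.0345 CPM per kilobase in PX-478 livers and 0.0314 in saline livers, was the lowest of all. Many neighbours in the order were not set apart by the spread between livers, for example Ppara and Rxra. Ppara lay at 31.6 to 59.1 CPM per kilobase in PX-478 livers and 24.0 to 51.7 in saline livers. Rxra lay at 36.2 to 53.1 CPM per kilobase in PX-478 livers and 38.7 to 48.9 in saline livers.

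**Figure D2:**
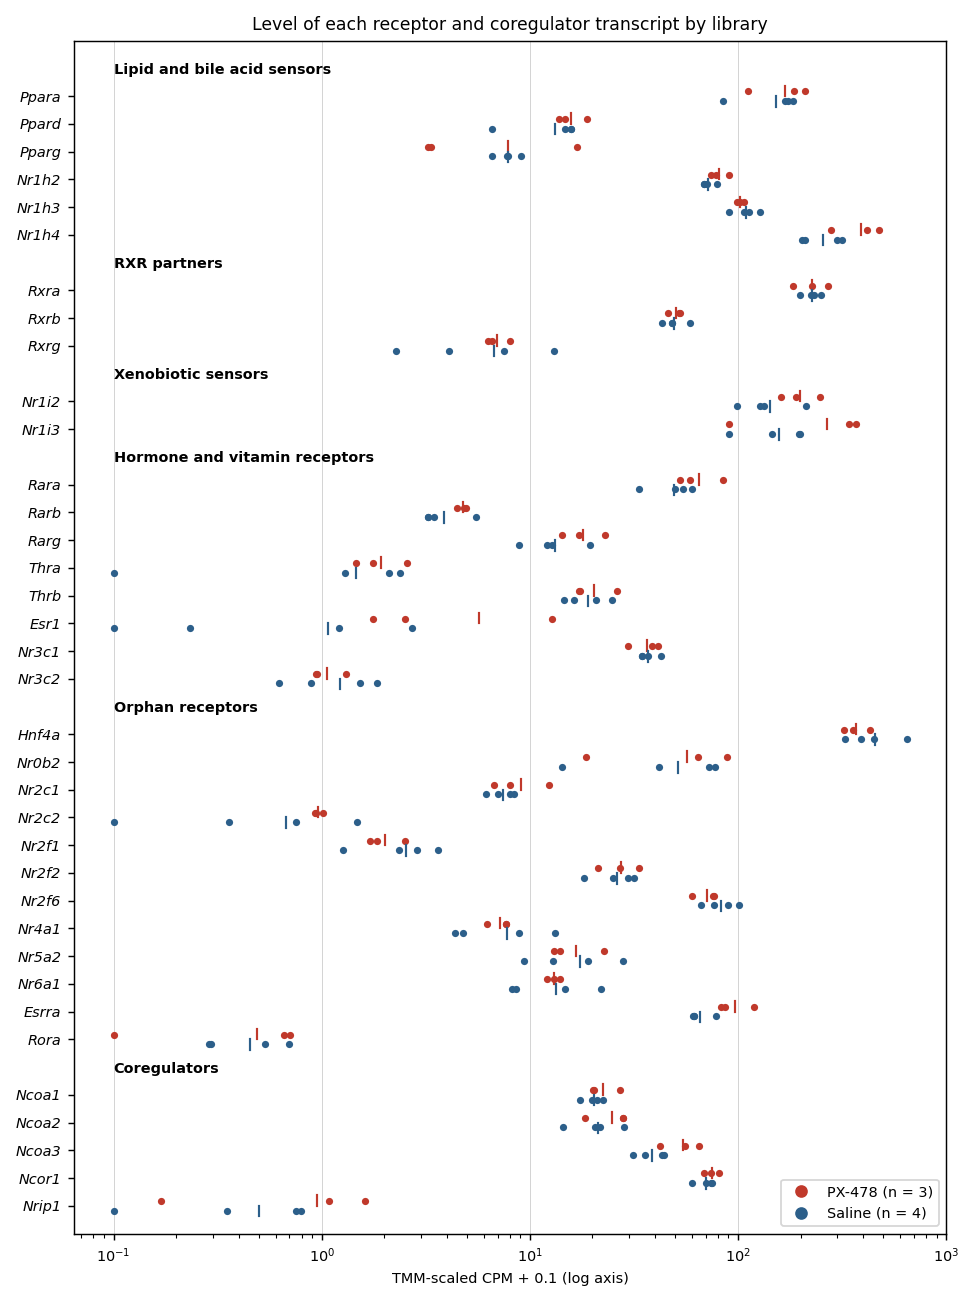
Level of each of the 36 genes in every library, as TMM-scaled CPM plus 0.1 on a log axis, by role. Points are libraries (3 PX-478, 4 saline) and vertical ticks the group means. Values overlap between the groups for every tested gene except Esrra, whose PX-478 libraries lie at 82.9 to 119 CPM and saline libraries at 60.6 to 78.3 CPM.

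Among the sensors of lipids and bile acids, the bile acid receptor FXR, encoded by Nr1h4, had the smallest p. FXR represses bile acid synthesis and induces bile acid export when bile acids accumulate. Nr1h4 had 419, 279 and 477.9 CPM in the PX-478 livers, against 203, 316, 209 and 298 CPM in the saline livers. The 2 highest of the 7 livers were PX-478 replicates 3 and 1, and replicate 2 lay inside the saline range. The means were 391.9 ± 102 CPM in PX-478 livers and 257 ± 58.6 CPM in saline livers (SD, n = 3 and n = 4), and the log2 fold change was 0.61 (standard error 0.24, 95% interval 0.094 to 1.13, adjusted p = 0.647 by edgeR's quasi-likelihood F test). The unadjusted p in this test stayed under 0.05 in 3 of the 7 fits that left out 1 library, and leaving out PX-478 replicate 2 gave a log2 fold change of 0.80. Nr1h4 lies at chr10:89454234-89533585 in mm10, on the minus strand. The 250 bases before the start listed by RefSeq are shown because receptors of this family bind repeats of the half-site AGGTCA. That start lies inside the gene span given above, so the bases shown fall within the gene as annotated. They are chr10:89506659-89506908, minus strand, GRCm38.p6, 5′ to 3′, with the half-site, here in its reverse complement, in capitals at position -214 from the start.
Nr1h4: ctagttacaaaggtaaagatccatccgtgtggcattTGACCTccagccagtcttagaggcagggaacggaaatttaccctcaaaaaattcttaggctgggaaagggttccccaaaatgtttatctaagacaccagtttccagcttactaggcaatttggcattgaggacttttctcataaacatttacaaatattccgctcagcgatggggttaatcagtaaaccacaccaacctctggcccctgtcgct

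On both strands, AGGTCA was in 9 of the 50 RefSeq promoter windows of this length that belong to 32 of the 36 genes (18%) and in 14.02% of 32851 windows of all genes. A direct repeat of it with a spacing of 1, AGGTCANAGGTCA, was in 0 of the 50 and in 0.0335% of all windows. TCAAGGTCA, the longer site of estrogen-related and NR5A receptors, was in 0 of the 50 and in 0.387% of all. A match is only a match of letters, and these windows leave out everything beyond the 250 bases.

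The 3 PPAR genes encode fatty acid receptors with different tasks. Ppara, which drives fatty acid oxidation in fasting, averaged 169 ± 51.0 CPM in PX-478 livers and 153 ± 45.6 CPM in saline livers, and its log2 fold change was 0.15 (95% interval -0.46 to 0.76). Ppard, the widely expressed member, averaged 15.7 ± 2.62 CPM in PX-478 livers and 13.1 ± 4.46 CPM in saline livers, with a difference of 0.26 (95% interval -0.38 to 0.90). Pparg, the receptor of fat storage that is induced in fatty liver, had 3.13, 16.8 and 3.26 CPM in the PX-478 livers, against 8.99, 7.63, 6.48 and 7.77 CPM in the saline livers. Its 3 PX-478 values did not form a cluster: replicate 2 was the highest of the 7 livers and replicates 1 and 3 the lowest. The group means were 7.73 ± 7.85 CPM in PX-478 livers and 7.72 ± 1.03 CPM in saline livers, and the log2 fold change was -0.0035 (standard error 0.53). Without PX-478 replicate 2 it was -1.27, with an adjusted p of 0.319 in edgeR's quasi-likelihood test. Pparg is set out liver by liver because its values stood out once seen.

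The oxysterol receptors LXRβ and LXRα promote cholesterol efflux and lipogenesis. Nr1h2, which encodes LXRβ, averaged 81.0 ± 8.63 CPM in PX-478 livers and 71.8 ± 4.98 CPM in saline livers (log2 fold change 0.17, 95% interval -0.19 to 0.54). Nr1h3, which encodes LXRα and is active in hepatocytes and macrophages, averaged 103 ± 4.04 CPM in PX-478 livers and 109 ± 15.0 CPM in saline livers (-0.090, 95% interval -0.48 to 0.30). Both intervals lie within a 2-fold change. The 14 Kupffer cell and macrophage markers had lower values in PX-478 for 13, with summed levels of 355 to 472 CPM in PX-478 livers and 403 to 735 CPM in saline livers, and their part in the values of Nr1h3 was not tested. In bulk liver, fewer cells of a type and less RNA per cell cannot be told apart.

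The retinoid X receptors are the shared partners of FXR, LXR, the PPARs, the xenobiotic sensors, and the retinoid and thyroid hormone receptors. Rxrb had the smallest p of the 3, with 52.7, 46.3 and 52.1 CPM in the PX-478 livers, against 47.9, 48.2, 58.4 and 43.3 CPM in the saline livers, and the groups overlapped throughout. Its log2 fold change was 0.025 (95% interval -0.35 to 0.41, adjusted p = 0.981 by edgeR's quasi-likelihood F test). Rxra, the main form in liver, averaged 228 ± 43.1 CPM in PX-478 livers and 226 ± 21.6 CPM in saline livers (0.012, 95% interval -0.41 to 0.43). Rxrg, low in this tissue, averaged 6.89 ± 0.941 CPM in PX-478 livers and 6.66 ± 4.76 CPM in saline livers (0.060, 95% interval -0.99 to 1.11). The intervals of Rxra and Rxrb hold no difference of 2-fold, while that of Rxrg does.

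The xenobiotic sensors PXR and CAR, encoded by Nr1i2 and Nr1i3, induce cytochrome P450 and transport genes in response to drugs and endogenous toxins. Nr1i2 had 248, 160.2 and 190.4 CPM in the PX-478 livers, against 127, 134, 98.5 and 212 CPM in the saline livers. Replicate 1 of PX-478 was the highest of all, but saline replicate 4 lay above PX-478 replicates 2 and 3. The log2 fold change was 0.48 (standard error 0.26, 95% interval -0.075 to 1.04, adjusted p = 0.750 by edgeR's quasi-likelihood F test).

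Nr1i3, given by liver because of the spread within its group, had 342, 90.6 and 371 CPM in the PX-478 livers, against 146, 196, 90.7 and 199 CPM in the saline livers. Replicates 1 and 3 of PX-478 were above every saline liver, and replicate 2 was as low as the lowest saline liver. The log2 fold change was 0.76 (standard error 0.46, 95% interval -0.28 to 1.81, adjusted p = 0.788 by edgeR's quasi-likelihood F test), and 1.17 without PX-478 replicate 2 (adjusted p = 0.251). Nr1i3 shares 2160 of its 3270 exon bases (66.1%) with Tomm40l on the opposite strand, a gene of the mitochondrial import family. No use of strand in counting is stated, so reads of the pair cannot be told apart. Tomm40l had 519, 161 and 571 CPM in the PX-478 livers, against 219, 363, 114 and 351 CPM in the saline livers, which follows the same order of PX-478 livers as Nr1i3. The ratio of Nr1i3 to Tomm40l reads was 0.660, 0.564 and 0.650 in the PX-478 livers, against 0.666, 0.541, 0.795 and 0.568 in the saline livers, a narrower range than that of either gene. The window before the Nr1i3 start, chr1:171213720-171213969 on the plus strand, is shown for its E-box CACGTG, the site of clock and other bHLH factors, in capitals at position -244.
Nr1i3: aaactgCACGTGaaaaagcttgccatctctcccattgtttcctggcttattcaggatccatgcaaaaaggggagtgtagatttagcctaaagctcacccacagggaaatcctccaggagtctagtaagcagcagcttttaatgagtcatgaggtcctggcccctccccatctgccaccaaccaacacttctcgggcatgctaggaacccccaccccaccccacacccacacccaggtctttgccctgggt

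The receptors of hormones and vitamins had higher values in PX-478 for 6 of 8 genes. Their median log2 fold change was 0.35, and 0 of them had an unadjusted p under 0.05 in edgeR, 0 in DESeq2 and 1, Esr1, in limma-voom. Esr1, the estrogen receptor α, had the smallest p, on few reads: 24, 32 and 194 reads in the PX-478 livers, against 17, 0, 2 and 42 reads in the saline livers. In CPM it had 1.67, 2.42 and 12.7 CPM in the PX-478 livers, against 1.11, 0, 0.132 and 2.63 CPM in the saline livers. PX-478 replicate 3 held most of the signal, and the value of saline replicate 2 was 0 after rounding. The log2 fold change was 2.49 (standard error 1.14, 95% interval -0.14 to 5.11, adjusted p = 0.728 by edgeR's quasi-likelihood F test), and without PX-478 replicate 3 it was 1.05.

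The retinoic acid receptors answer to a product of vitamin A, which stellate cells store in the liver, and all 3 had higher means in PX-478. Rara averaged 65.2 ± 16.9 CPM in PX-478 livers and 49.5 ± 11.4 CPM in saline livers (0.40, 95% interval -0.10 to 0.90), and Rarg averaged 18.01 ± 4.39 CPM in PX-478 livers and 13.2 ± 4.43 CPM in saline livers (0.45, 95% interval -0.15 to 1.05). Rarb averaged 4.65 ± 0.233 CPM in PX-478 livers and 3.77 ± 1.11 CPM in saline livers (0.30), and 52.9% of its exon bases are shared with Top2b on the other strand. Of 11 stellate cell markers 8 had higher values, with summed levels of 366 to 575 CPM in PX-478 livers and 361 to 404 CPM in saline livers, and their part in the retinoic acid receptor values was not tested.

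The intervals of the thyroid hormone, glucocorticoid and mineralocorticoid receptors all included 0. Thrb, the main thyroid hormone receptor of hepatocytes, averaged 20.2 ± 5.22 CPM in PX-478 livers and 19.0 ± 4.58 CPM in saline livers (0.090, 95% interval -0.44 to 0.62). Thra rested on 24, 18 and 38 reads in the PX-478 livers, against 35, 23, 0 and 19 reads in the saline livers, with a log2 fold change of 0.43, and it shares 8.33% of its exon bases with Nr1d1. The glucocorticoid receptor Nr3c1, which mediates fasting and stress signals, averaged 36.5 ± 6.21 CPM in PX-478 livers and 37.0 ± 3.85 CPM in saline livers, with a log2 fold change of -0.020 (95% interval -0.43 to 0.39), inside a 2-fold change. The mineralocorticoid receptor Nr3c2 was near 1 CPM at 0.965 ± 0.213 CPM in PX-478 livers and 1.13 ± 0.567 CPM in saline livers (-0.23, 95% interval -1.73 to 1.27).

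Among the receptors classed as orphans, 5 of the 11 tested were higher and 6 lower, and the median log2 fold change was -0.032, but 8 were higher and the median was 0.074 with library size scaling. Esrra, the estrogen-related receptor α that partners PGC-1 coactivators in mitochondrial gene expression, had the smallest p of all 35 genes. Its levels were 86.8, 82.9 and 119 CPM in the PX-478 livers, against 61.6, 60.6, 61.7 and 78.3 CPM in the saline livers. With TMM or library size scaling all 3 PX-478 livers lay above all 4 saline livers, in TMM-scaled values with 82.9 CPM in the lowest PX-478 liver against 78.3 CPM in the highest saline liver. The means were 96.2 ± 19.7 CPM in PX-478 livers and 65.6 ± 8.52 CPM in saline livers (SD, n = 3 and n = 4), and the log2 fold change was 0.55 (standard error 0.19, 95% interval 0.14 to 0.97, adjusted p = 0.590 by edgeR's quasi-likelihood F test). The unadjusted p of this test was under 0.05 in 6 of the 7 fits without 1 library, and the log2 fold change without PX-478 replicate 3 was 0.37. Esrra lies at chr19:6910977-6921813 in mm10. Its window at chr19:6921809-6922058, minus strand, is shown as the start of the gene with the clearest separation of the groups, and holds neither AGGTCA nor CACGTG.
Esrra: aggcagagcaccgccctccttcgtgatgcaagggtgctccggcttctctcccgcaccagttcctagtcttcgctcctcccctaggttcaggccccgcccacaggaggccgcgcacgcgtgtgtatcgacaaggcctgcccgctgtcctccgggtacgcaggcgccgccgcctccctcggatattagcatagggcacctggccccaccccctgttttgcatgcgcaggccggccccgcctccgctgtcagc

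Hnf4a, the constitutive activator of apolipoprotein, clotting factor and drug metabolism genes, averaged 370.2 ± 56.7 CPM in PX-478 livers and 453 ± 138 CPM in saline livers, with a log2 fold change of -0.29 (95% interval -0.82 to 0.23). Nr2f6, a repressor of the COUP family, averaged 70.8 ± 9.43 CPM in PX-478 livers and 83.1 ± 15.1 CPM in saline livers (-0.23), and 41.2% of its exon bases are shared with Ocel1. Nr0b2 encodes SHP, the receptor without a DNA-binding domain that FXR induces to repress bile acid synthesis. It had 88.2, 18.5 and 64.0 CPM in the PX-478 livers, against 41.5, 77.5, 72.4 and 14.2 CPM in the saline livers, given by liver because its spread was among the widest. Low and high livers occurred in both groups, with PX-478 replicate 2 and saline replicate 4 the lowest, and the log2 fold change was 0.15 (standard error 0.70, 95% interval -1.53 to 1.83). The window before its start, chr4:133553126-133553375 on the plus strand, is shown for an E-box, CACGTG, in capitals at position -195. That letter string was in 4 of the 50 windows (8%) and in 6.02% of all windows.
Nr0b2: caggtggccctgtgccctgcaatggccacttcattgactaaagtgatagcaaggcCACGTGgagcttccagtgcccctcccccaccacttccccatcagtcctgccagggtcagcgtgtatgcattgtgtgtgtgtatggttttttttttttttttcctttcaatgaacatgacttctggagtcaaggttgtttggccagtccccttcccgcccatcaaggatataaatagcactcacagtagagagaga

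The remaining orphans were at or below 30 CPM on average. Nr2f2, the COUP-TFII of endothelial and stromal cells, averaged 27.2 ± 6.01 CPM in PX-478 livers and 26.1 ± 6.06 CPM in saline livers (0.062), beside endothelial markers that were higher for 10 of 13 and summed to 429.5 to 550.0 CPM in PX-478 livers and 396 to 484 CPM in saline livers. Their part in its values was not tested. Nr5a2, the LRH-1 that drives bile acid and reverse cholesterol transport genes, averaged 16.5 ± 5.28 CPM in PX-478 livers and 17.2 ± 8.18 CPM in saline livers (-0.065). Nr6a1, the germ cell nuclear factor, averaged 12.9 ± 0.974 CPM in PX-478 livers and 13.3 ± 6.44 CPM in saline livers (-0.032), and Nr4a1, the immediate early gene NUR77, averaged 7.09 ± 0.8293 CPM in PX-478 livers and 7.71 ± 4.13 CPM in saline livers (-0.12). None of these 4 estimates exceeded its standard error.

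The testicular receptors Nr2c1 and Nr2c2, which bind repeats that other receptors also use, were both low. Nr2c1 averaged 8.96 ± 2.93 CPM in PX-478 livers and 7.31 ± 1.01 CPM in saline livers (0.29). Nr2c2 averaged 0.861 ± 0.0460 CPM in PX-478 livers and 0.572 ± 0.600 CPM in saline livers (0.56) and shares 43.6% of its exon bases with Mrps25. Nr2f1, the COUP-TFI, averaged 1.92 ± 0.435 CPM in PX-478 livers and 2.43 ± 0.982 CPM in saline livers (-0.34). Rora, a constitutive activator of rhythmic and lipid genes, was below the count filter with 8, 8 and 0 reads in the PX-478 livers, against 3, 5, 9 and 3 reads in the saline livers.

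All 5 coregulators had higher values in PX-478, and the median log2 fold change was 0.22. Ncoa3, a p160 coactivator with histone acetyltransferase activity, had 55.5, 64.8 and 42.2 CPM in the PX-478 livers, against 31.4, 43.2, 44.2 and 35.7 CPM in the saline livers. Replicates 2 and 1 of PX-478 were above every saline liver and replicate 3 was inside their range. The means were 54.1 ± 11.4 CPM in PX-478 livers and 38.6 ± 6.12 CPM in saline livers (SD, n = 3 and n = 4), and the log2 fold change was 0.49 (standard error 0.20, 95% interval 0.048 to 0.93, adjusted p = 0.683 by edgeR's quasi-likelihood F test). The unadjusted p of this test was under 0.05 in 3 of 7 fits without 1 library, and leaving out PX-478 replicate 2 gave a log2 fold change of 0.34.

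The other p160 coactivators were closer to the saline level. Ncoa1 averaged 22.5 ± 3.96 CPM in PX-478 livers and 20.1 ± 2.09 CPM in saline livers (0.16, 95% interval -0.28 to 0.59), and Ncoa2 averaged 24.7 ± 5.50 CPM in PX-478 livers and 21.2 ± 5.65 CPM in saline livers (0.22, 95% interval -0.32 to 0.76). Ncor1, the corepressor that holds histone deacetylase 3 at unliganded receptors, averaged 74.8 ± 6.33 CPM in PX-478 livers and 69.8 ± 6.997 CPM in saline livers (0.10, 95% interval -0.27 to 0.47). Nrip1, which encodes the corepressor RIP140, rested on 1, 20 and 15 reads in the PX-478 livers, against 10, 8, 0 and 4 reads in the saline livers, with a log2 fold change of 1.099 (standard error 1.12).

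Set side by side, the 6 role classes had the following medians. The median log2 fold change was 0.62 for the 2 xenobiotic sensors, 0.35 for 8 hormone and vitamin receptors, 0.22 for 5 coregulators, 0.16 for 6 lipid and bile acid sensors, 0.025 for 3 retinoid X receptors and -0.032 for 11 orphans. Leaving out 1 library gave 0.42 to 0.90 for the xenobiotic sensors, 0.13 to 0.40 for hormone and vitamin receptors, 0.12 to 0.39 for coregulators, -0.0097 to 0.27 for lipid and bile acid sensors, -0.058 to 0.099 for retinoid X receptors and -0.11 to 0.17 for orphans. The median lay below 0 without saline replicate 3 for the lipid and bile acid sensors, and without PX-478 replicate 3 or saline replicate 4 for the retinoid X receptors. That of the orphans lay above 0 without PX-478 replicate 2 or 3 and without saline replicate 1 or 2. The values were lowest without saline replicate 3 for the hormone and the lipid receptors and highest without PX-478 replicate 2 for the xenobiotic, hormone and retinoid X receptors. No test was made between classes.

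The PX-478 livers did not vary together across the set. Replicate 2 of PX-478 had the lowest value of its group for 20 of the 35 genes and replicate 3 the highest for 20, against 34.9% and 33.6% of all genes. Under scaling by library size alone replicate 2 was lowest for 5 of 35 (11.7% of all genes), so this order rests on the scaling. For single genes the livers of the group lay far apart. On edgeR's log2 CPM scale, with a prior count of 2, replicate 2 was set against the mean of replicates 1 and 3. The difference was -2.02 for Nr0b2, -1.97 for Nr1i3, -0.82 for Ppara, -0.68 for Nr1h4 and 2.34 for Pparg. In the saline group replicate 3 was lowest for 14 of 35, against 32.8% of all genes.

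**Figure D3:**
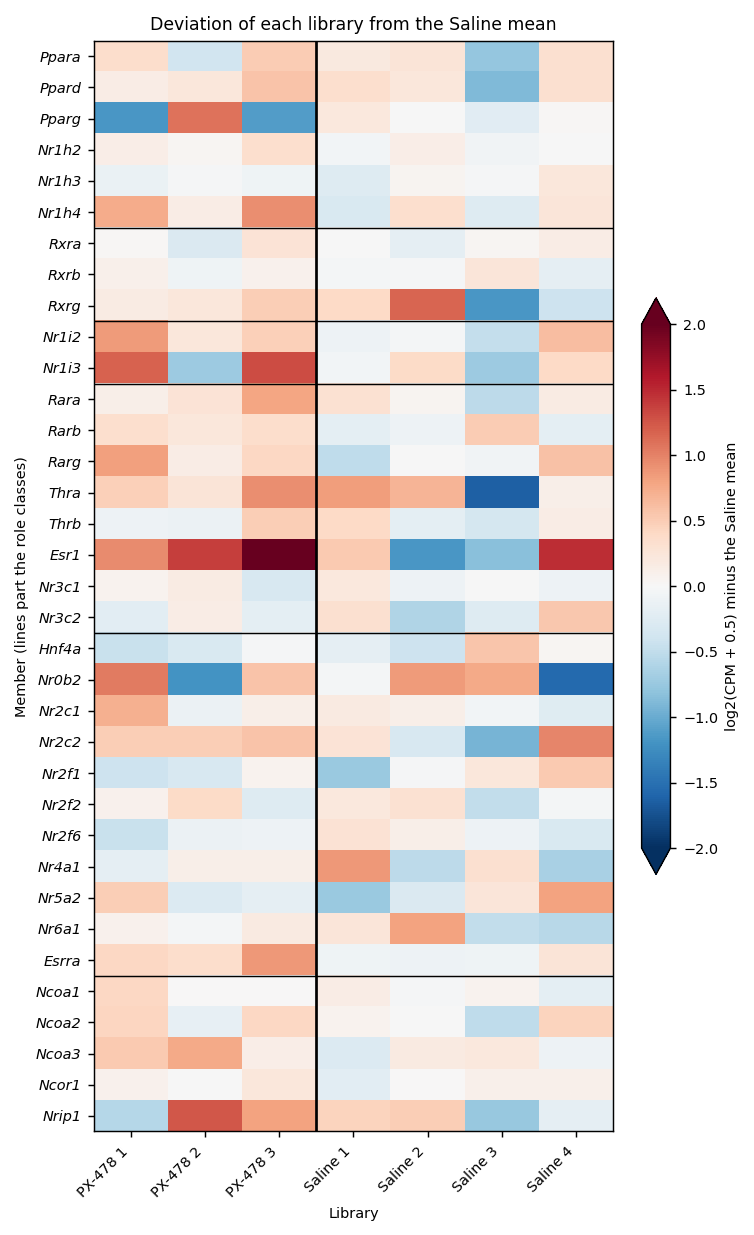
Deviation of each library from the saline mean, as log2(CPM + 0.5), for the 35 tested genes in rows (lines part the role classes) and the 7 libraries in columns, PX-478 at left. Red is above and blue below the saline mean. PX-478 replicate 2 lies above replicates 1 and 3 for Pparg and below them for Nr1i3 and Nr0b2.

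Genes that these receptors are known to regulate were read beside them, in 15 lists, and 0 of the genes in any list passed the adjusted threshold. Lists share some genes, and a single value given for a target gene is its log2 fold change. Library size scaling moved the median of all genes from -0.0035 to 0.15. List medians then turned from below to above 0 for LXR (0.10), FXR-induced (0.082), thyroid hormone (0.024), glucocorticoid (0.18), estrogen (0.043) and NUR77 targets (0.044). The estrogen median, at -0.34 before, moved the farthest of these and by more than that of all genes. Medians kept their sign for the other 9 lists. The PPARα list of fatty acid oxidation had 13 of 24 genes higher and 11 lower, and the median log2 fold change was 0.011. Ehhadh, a peroxisomal oxidation enzyme, averaged 48.4 ± 6.79 CPM in PX-478 livers and 30.5 ± 1.13 CPM in saline livers, with groups that did not overlap (0.66, adjusted p = 0.381 by edgeR's quasi-likelihood F test). The ω-hydroxylase Cyp4a31 stood at 1.05 and the thiolase Acaa1b at 0.66. Groups also did not overlap for Cyp4a31, and for Fabp1 (-0.32) and Slc25a20 (-0.36) of this list, which were lower in PX-478. Of all genes tested, 4.3% lay higher and 4.29% lower in PX-478 without overlap. The ω-hydroxylase Cyp4a14 averaged 61.7 ± 44.0 CPM in PX-478 livers and 10.3 ± 12.9 CPM in saline livers (2.60, adjusted p = 0.773 in the same edgeR test). Cpt1a, the gate of mitochondrial fatty acid entry, was at -0.11 and the pyruvate dehydrogenase kinase Pdk4 at 0.069.

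PPARγ targets, the genes of lipid uptake and droplets, were lower for 7 of 8 tested, with a median of -0.57. The smallest p belonged to Fitm1, which promotes droplet formation (-1.39, adjusted p = 0.108 by edgeR's quasi-likelihood F test), the fatty acid transporter Cd36 (-0.96) and the droplet coat gene Plin4 (-0.83). Cidec, a droplet fusion gene, had 2.30, 13.99 and 2.22 CPM in the PX-478 livers, against 4.95, 6.59, 1.85 and 8.27 CPM in the saline livers. As with Pparg, PX-478 replicate 2 was the highest of the 7 livers, while the lowest was saline replicate 3, next to PX-478 replicates 3 and 1. Without PX-478 replicate 2 the median of the list was -1.33. Of the adipocyte markers Adipoq, Plin1, Lep and Retn were not among the 14889 genes with counts. The other adipocyte markers summed to 67.6 to 82.2 CPM in PX-478 livers and 76.3 to 102 CPM in saline livers. One of these markers, Cfd, was the gene that passed the adjusted threshold, and it was lower in PX-478, at 0.432 ± 0.281 CPM in PX-478 livers and 25.7 ± 11.3 CPM in saline livers. The part of adipocyte RNA in the PPARγ list was not tested.

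The LXR list had 6 of 14 genes higher and 8 lower, with a median of -0.054. The phospholipid transfer protein gene Pltp was at -0.80, the lipoprotein lipase gene Lpl at -0.63, the lipogenic regulator Srebf1 at 0.74 and the cholesterol exporter Abca1 at -0.11. Genes induced by FXR were higher for 3 of 8, with a median of -0.051. The bile salt export pump gene Abcb11 was at -0.27, the bile acid conjugation gene Slc27a5 at 0.27 and the hormone gene Fgf21 at -0.50. None of the last 3 had an unadjusted p under 0.05.

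The genes that FXR and SHP repress were higher for 3 of 5, with a median of 0.11. Cyp7a1, the rate-limiting enzyme of bile acid synthesis, averaged 29.6 ± 13.1 CPM in PX-478 livers and 25.0 ± 11.4 CPM in saline livers (0.25), and Cyp7b1 of the alternative route was at -0.89. The 12α-hydroxylase Cyp8b1 had 77.2, 12.4 and 68.5 CPM in the PX-478 livers, against 112, 96.3, 48.6 and 29.9 CPM in the saline livers, with the lowest value in PX-478 replicate 2 (-0.44). The uptake transporter Slco1a1 was at 0.22. LRH-1 targets were higher for 5 of 7, with a median of 0.25, and Scp2 at -0.55, Scarb1 at 0.55 and Gnmt at 0.28 had the smallest p. That median is the value of Cyp7a1, and it was 0.025 to 0.20 when 1 library was left out. Summed levels of the list were 2525 to 2904 CPM in PX-478 livers and 2901 to 3686 CPM in saline livers.

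CAR and PXR targets, the enzymes and transporters of drug clearance, were higher for 13 of 17, with a median of 0.21. Por, the electron donor of microsomal cytochromes P450, averaged 331 ± 71.6 CPM in PX-478 livers and 171 ± 91.4 CPM in saline livers (0.95), and Cyp3a13 was at 0.79. The carboxylesterase gene Ces2c stood at -0.96. Cyp3a11, a standard PXR target in mouse, was at -0.13. Cyp2b10, the standard CAR target, was not among the 14889 genes with counts, nor were Cyp2b9 and Cyp2b13 of this list.

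HNF4α targets were lower for 16 of 20 (11 of 20 with library size scaling), with a median of -0.24, where hepatocyte markers were lower for 9 of 10 with a median of -0.34. Those with the smallest p were the pyruvate kinase gene Pklr (-0.72), the transthyretin gene Ttr (-0.57), which is also a hepatocyte marker, and Apob (-0.46), likewise. The part of the hepatocyte markers in the HNF4α list was not tested.

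Thyroid hormone targets were higher for 3 of 10 (median -0.18), with the glucose output gene G6pc at -1.78, Bcl3 at -0.57 and the lipogenic gene Thrsp at 0.36. Glucocorticoid targets were higher for 7 of 16 (median -0.023), with the acute phase gene Lcn2 at -1.38, the kinase gene Sgk1 at 0.45, the metallothionein gene Mt2 at -2.39 and the chaperone gene Fkbp5 at 0.20. Retinoid targets were higher for 4 of 7 (median 0.042), and the retinoic acid hydroxylase gene Cyp26a1 averaged 24.5 ± 11.5 CPM in PX-478 livers and 12.8 ± 3.90 CPM in saline livers (0.93, adjusted p = 0.643 by edgeR's quasi-likelihood F test). Beside it Rdh10, which makes retinal, was at -0.50 and Lrat, which stores retinol, at 0.26. Of 5 estrogen targets, Greb1 and Pgr were not among the 14889 genes with counts. Lifr was at -0.34, Gadd45g at -0.37 and Cish at 0.19. Cish is also known to follow growth hormone, and Cish and Gadd45g are both described below as growth hormone and cytokine response genes.

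Esrra stood higher in every PX-478 liver, while the ERRα targets were higher for 4 of 9, with a median of -0.16. The respiratory genes Cycs, Cox5b and Sdhb had the smallest p, at -0.27, -0.24 and -0.23. NUR77 targets were higher for 2 of 5 (median -0.090), with G6pc as above, Sik1 at -0.38 and Eno3 at 0.23.

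Targets of the ROR receptors had the median farthest from 0 of the 15 lists, at -1.49, with 8 of 9 tested genes lower. Insig2, which holds the SREBP precursor in the endoplasmic reticulum, averaged 22.7 ± 4.82 CPM in PX-478 livers and 72.6 ± 37.7 CPM in saline livers (-1.68, adjusted p = 0.264 by edgeR's quasi-likelihood F test). The very long chain elongase gene Elovl3 was at -2.84 and the estrogen sulfotransferase gene Sult1e1 at -3.26. G6pc is also in this list. The clock activator Npas2, below the count filter, had 0, 0 and 0 reads in the PX-478 livers, against 68, 14, 4 and 3 reads in the saline livers.

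**Figure D4:**
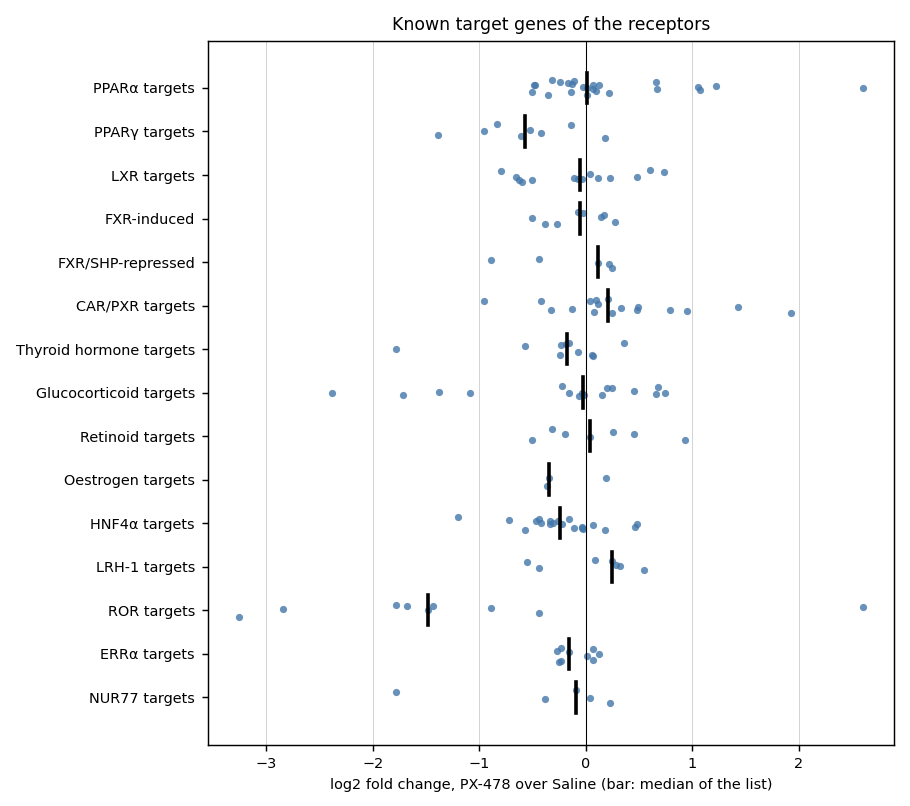
Log2 fold change, PX-478 relative to saline (x axis, log2 units), for tested genes in 15 lists of receptor targets. Points are genes and black bars list medians. Medians lie near 0 for most lists, at -0.57 for PPARγ targets and at -1.49 for ROR targets.

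Receptors and coregulators outside the 36 were read from further lists. Of 16 other receptors 6 were tested and 3 were higher, with none past the adjusted threshold. Nr1d2, the rhythmic repressor REV-ERBβ, averaged 119 ± 2.15 CPM in PX-478 livers and 86.3 ± 7.35 CPM in saline livers, and every PX-478 liver exceeded every saline liver (0.47, standard error 0.17, adjusted p = 0.602 by edgeR's quasi-likelihood F test). Its relative Nr1d1 averaged 166 ± 59.8 CPM in PX-478 livers and 202 ± 71.1 CPM in saline livers (-0.28), and Esrrg was at 0.76.

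Of 24 other coregulators 14 were higher, with a median of 0.069. Ppargc1b, the PGC-1β coactivator of ERRα and PPARα, had 14.8, 16.5 and 14.5 CPM in the PX-478 livers, against 6.77, 7.46, 0.793 and 8.14 CPM in the saline livers. The groups did not overlap, and the log2 fold change was 1.40 (standard error 0.55, adjusted p = 0.677 by edgeR's quasi-likelihood F test). Its relative Ppargc1a was at -0.35, Nr2c2ap at -0.70 and Akap8 at 0.34.

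Because Nr1d1 and Nr1d2 follow the time of day, a list of clock genes, which includes Nr1d2 itself, was set beside them. Of 15 tested 9 were higher, with a median of 0.47, against 49.7% and -0.0035 for all genes tested. That median is the value of Nr1d2, so it is not separate from that gene. In edgeR's test 5 of the 15 had an unadjusted p under 0.05, against 6.97% of all genes, and none passed the adjusted threshold. These were Nr1d2 and the next 4, named for the smallest p of the list. Tef averaged 522 ± 109 CPM in PX-478 livers and 228 ± 48.3 CPM in saline livers (1.196) and Dbp 128 ± 32.3 CPM in PX-478 livers and 62.3 ± 14.4 CPM in saline livers (1.04), both output activators of the clock. Per3 averaged 118 ± 23.4 CPM in PX-478 livers and 37.2 ± 21.7 CPM in saline livers (1.67), and the core activator Clock averaged 4.67 ± 1.33 CPM in PX-478 livers and 10.3 ± 1.49 CPM in saline livers (-1.14). The labels do not state the hour at which the livers were taken, and its part in the values of the rhythmic receptors was not tested.

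The authors' deposited table gives an unadjusted p under 0.05 for 9 of the 36 genes and for 25.9% of all 14889. In the authors' deposited table these 9 are Nr1h2, Nr1h4, Nr1i2, Nr1i3, Rara, Rarg, Esr1, Esrra and Ncoa3. The deposited counts hold 2 columns for each liver that differ by less than sampling noise. Entering all 14 columns into edgeR as separate libraries gave an unadjusted p under 0.05 for the same 9 genes and for 26.1% of all genes. For Esrra the p was 0.000163 in that fit and 0.000167 in the authors' deposited table. In that fit 3 of the 35 tested (8.57%) had an adjusted p under 0.05 in edgeR's quasi-likelihood test, Esrra at 0.00692, Ncoa3 at 0.0255 and Nr1h4 at 0.0284, against 9.97% of all genes. A liver counted in 2 columns is still 1 animal, so the 7-library values are the ones given above.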

How the data were processed

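Liver RNA of 7 mice was sequenced, 3 given PX-478 and 4 saline, and grouped by sample title. The authors deposited whole-number read counts per gene; featureCounts, edgeR and mm10 are named without versions in the submitters' processing notes, with no aligner. Per the file headers, the authors also deposited a log2 fold change and an unadjusted p-value. Each of the 14889 genes exceeds a CPM of 0.5 in 2 or more columns, which shows a filter made before deposit. The table holds 2 count columns per sample; chi-square per gene was 0.291 to 0.765 between them and 49.1 to 145 between libraries, so they were averaged, rounded and counted as 1 sample. A further 7 columns, averages by sample, were left out.

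Counts were tested with edgeR 4.0.16 in R 4.3.3 (filterByExpr, TMM, robust quasi-likelihood F test, no covariates) at a Benjamini-Hochberg adjusted p of 0.05. Standard errors were obtained by dividing the size of the log2 fold change by the root of the F statistic, and intervals cover 95%. In 1 library 3 reads correspond to 0.188 to 0.260 CPM, which covers counting error only. The biological coefficient of variation was 0.325. The test was first tried on simulated counts. Exon lengths, positions and overlaps came from GENCODE (GRCm38, the coordinates of mm10), and promoter windows from RefSeq (GRCm38.p6); 4 of the 36 genes were not matched there.

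The 36 genes, their classes and the other lists were chosen with earlier results of these data known. All 36 are named; values by liver are given for those with an unadjusted p under 0.05 and for the smallest p of other classes. From each target list the 3 smallest p and fixed genes are named, apart from a few left unreported here. Pparg, Nr1i3, Nr0b2, Tomm40l, Npas2 and the liver values of Cidec, Cyp8b1 and Ppargc1b were added after their values were seen. Role classes are described, not tested. Alternatives were other scalings, filters and tools, single or summed columns, a replicate block, leaving out libraries and, added after seeing the data, all 14 columns as libraries.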

Additional observations from a re-analysis of the deposited data

Results flagged for a closer look

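In the saline group 4 of the 35 tested genes had 1 liver far from the other 3, measured by Dixon's ratio of its gap to the nearest liver over the range of the group. Ppara was at 84.87 CPM in saline replicate 3, with a gap of 0.845 of the range. Ppard was at 6.478 CPM in the same liver, with a gap of 0.881. Rarb was at 5.42 CPM there, the highest of its group, with a gap of 0.888. Esrra was at 78.31 CPM in saline replicate 4, above the other saline livers, with a gap of 0.941. Chance alone marks about 1 in 20 genes in this way, and 35 were checked. Groups of 3 were not checked, so the PX-478 livers are not included.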

How the results depend on the processing

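Of 768 values of single genes under the alternatives, 716 kept their direction and their side of the threshold and 49 reversed, 29 of them when 1 library was left out; 21 of the 35 genes never reversed. No fit left a receptor or coregulator past an adjusted p of 0.05 except the one with all 14 columns as libraries, which gave 3, all higher. In that fit 9 had an unadjusted p under 0.05, and leaving out 1 library gave 1 to 5, with 5 without saline replicate 4.

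The count of genes past the threshold among all genes depended on the choices. Higher in PX-478 there were 4 with library size scaling, 46 in DESeq2, 1 with the replicate block, 9 without saline replicate 3 and PX-478 replicate 2 and 643 with 14 columns. Lower there were 38 in DESeq2, 0 in limma-voom (where 0 were higher too), 2 with the block, 6 without those 2 libraries and 717 with 14 columns. Without 1 library the counts were 0 to 4 higher, with 4 without PX-478 replicate 2 or saline replicate 4, and 1 to 3 lower, with 3 without PX-478 replicate 3. Deviations of same-numbered samples had correlations of -0.021, -0.074 and -0.0017, within the -0.079 to 0.17 of differently numbered pairs. With so few samples this cannot tell whether same-numbered samples share a day or batch, which the labels do not give. The replicate block moved the coregulator median to 0.39, Rxrb to -0.030, Nr3c2 to 0.15, Nr0b2 to -0.36 and Nr5a2 to 0.28.

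Library size scaling turned Pparg to 0.29, Nr1h3 to 0.061, Nr3c1 to 0.16, Nr4a1 to 0.048, Nr5a2 to 0.074 and Nr6a1 to 0.074, while the median of all genes moved to 0.15. It moved the medians of other coregulators to 0.22, PPARα targets to 0.13, FXR-induced genes to 0.082 and ERRα targets to -0.036. Pparg, at -0.0035, became 0.0078 with RLE, 0.0065 with upper quartile scaling, 0.011 in DESeq2 and 0.0044 without mitochondrially encoded genes. In limma-voom Nr4a1 was 0.0026, Nr5a2 0.0019, Nr6a1 0.12, the FXR-induced median 0.076 and the LRH-1 median 0.098. A filter of CPM above 1 in 3 libraries gave other receptors a median of 0.46, with fewer genes tested.

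Without saline replicate 3 and PX-478 replicate 2, Rxrg was -0.19, Nr2f2 -0.25 and Nr5a2 0.12, and the medians were -1.43 for PPARγ, 0.26 for FXR-induced, -2.19 for estrogen, 0.11 for LRH-1 and -0.065 for ERRα targets. Leaving out 1 library at a time gave medians of -0.11 to 0.17 for orphans, 0.12 to 0.39 for coregulators, -0.042 to 0.50 for other receptors, -1.33 to -0.42 for PPARγ targets, -2.06 to 0.38 for estrogen targets and 0.025 to 0.20 for LRH-1 targets. The log2 fold change then ranged over -0.051 to 0.37 for Ppara, -1.27 to 0.38 for Pparg, -0.13 to 0.14 for Rxra, -0.035 to 0.11 for Rxrb, -0.23 to 0.60 for Rxrg, -0.14 to 0.24 for Thrb, -0.12 to 0.11 for Nr3c1, -0.46 to 0.062 for Nr3c2, -0.32 to 0.56 for Nr0b2, -0.11 to 0.21 for Nr2f2, -0.33 to 0.26 for Nr4a1, -0.36 to 0.27 for Nr5a2 and -0.21 to 0.31 for Nr6a1. PX-478 replicate 2 set the lower end for Pparg, for PPARγ and for estrogen targets, and saline replicate 2 the upper end for orphans. The causes of these shifts were not tested. Rora and Nrip1 rested on at most 20 reads in any library, which limits their precision, and 3 and 4 livers limit that of every gene.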

Other observations

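The rhythmic receptors and the clock also varied between livers within each group. Nr1d1, the REV-ERBα repressor, had 234, 125 and 138 CPM in the PX-478 livers, against 226, 248, 237 and 95.7 CPM in the saline livers. Within PX-478, replicate 1 was the highest, and within saline, replicate 4 was the lowest of the 7 livers. Arntl, the clock activator that REV-ERBα represses, had 0.627, 2.42 and 0.653 CPM in the PX-478 livers, against 8.21, 3.73, 0.529 and 1.32 CPM in the saline livers. Dbp, an output gene, had 141, 90.9 and 152 CPM in the PX-478 livers, against 42.1, 65.0, 76.1 and 65.9 CPM in the saline livers. These genes were picked for this description after their values were seen.

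Growth hormone and cytokine response genes also varied by liver, and they were picked after their values were seen. Cish, which encodes a feedback inhibitor of cytokine signalling, had 9.34, 106 and 8.09 CPM in the PX-478 livers, against 14.002, 15.1, 25.6 and 89.7 CPM in the saline livers, and Gadd45g, a stress response gene, had 14.9, 318 and 15.3 CPM in the PX-478 livers, against 93.8, 20.6, 153 and 330.0 CPM in the saline livers. The lowest Nr0b2 of each group was in PX-478 replicate 2 and saline replicate 4, where Cish and Gadd45g were the highest of their group. No test was made of this coincidence.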
